A study of Oryza sativa with 6 samples.

Results

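Response regulators of the cytokinin pathway (OsRR genes) were followed in leaves of rice, Oryza sativa, during drought. A probe was taken as a member when its single annotated gene carried a gene-table name made of RR, with or without the prefix Os, and a number. The rule found 12 genes with 13 probes, among 15702 genes with 17727 annotated probes tested. The gene table holds 19 genes with such a name, and the other 7 are not analysed here. By the usual numbering, RR1 to RR13 are type A, RR21 to RR33 type B, and RR41 and RR42 type C. This gave 6 type A probes for 6 genes, 6 type B probes for 5 genes, and 1 type C probe. The table's alias for RR33 is OsRRA19 and that for RR41 is OsRRA14, so their names do not agree on a type, and medians of type B are also given without RR33.

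Cytokinin is a plant hormone of cell division, shoot growth and delayed leaf ageing. Receptor histidine kinases sense it and pass a phosphate through small shuttle proteins to response regulators. Type B regulators are transcription factors with a DNA-binding domain, and they switch on genes that include those of type A. Type A regulators have a receiver domain without a DNA-binding domain and damp the pathway as feedback repressors. Type C regulators resemble type A in their receiver domain, but their genes are not known as direct cytokinin targets.

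The groups were drought-stressed and well-watered leaves of Apo, which the submitters call drought tolerant, and of IR64, which they call susceptible. Plants stood in a greenhouse and water was withheld from day 33 after sowing; the sample labels put the harvest of stressed leaves after 5 days and the series text after 6, and control leaves were harvested on day 37, so their ages may differ. Each genotype had 3 Agilent arrays, and each array compared drought RNA, labelled Cy3, with control RNA, labelled Cy5, and no array exchanged the dyes. Nothing in the labels says that the replicates are separate plants, and the spread behind the p-values may therefore be technical.

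Every value below is a deposited log10 ratio between the channels of 1 array, or a mean of these, with the base taken from the software. Which RNA is the numerator is not given in the sources used here. The software's own convention is Cy5 over Cy3, by which a positive ratio would be higher in control leaves, yet the 5 probes for dehydrins, proteins known for rising in drought, were positive in both genotypes. Ratios are therefore called positive or negative, and the side of the dehydrins serves as a landmark. Ratios give no level, so neither the leaf origin of the RNA nor whether a regulator lay above background could be checked. A lower share of the cells that express a gene and less of its RNA per cell cannot be told apart in whole leaves, and no ratio is free of a possible dye effect.

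The IR64 replicate 1 array stood apart. Across the tested probes its correlation with each Apo array was 0.832 to 0.894. With IR64 replicates 2 and 3 it was 0.755 and 0.767, while those correlated at 0.938 with each other. Where leaving it out changed the call of a regulator, the value without it is given, as it is for the IR64 means of OsRR6, RR21 and RR22. Ratios of exactly 0 made up 0.852% to 6.06% of the tested probes of an array.

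Type A regulators were split. OsRR9 and OsRR2 had the most negative ratios of all 13 probes in both genotypes, OsRR1 was negative in Apo, and OsRR5 was weakly positive in Apo. OsRR9 averaged -0.581 ± 0.0667 in Apo and -0.312 ± 0.0588 in IR64, and OsRR2 averaged -0.559 ± 0.145 in Apo and -0.441 ± 0.0904 in IR64 (SD, n = 3 each). On base 10 these are differences between the channels of 3.81 and 2.05 times for OsRR9, and of 3.62 and 2.76 times for OsRR2. All 12 of these array values lay on the side away from the dehydrins.

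OsRR9 (LOC4349747), a type A regulator whose loss together with that of OsRR10 is known to raise salt tolerance in rice, had -0.655, -0.565 and -0.525 on the Apo arrays and -0.254, -0.371 and -0.310 on the IR64 arrays. The genotypes did not overlap, every Apo array being more negative than every IR64 array. Limma's moderated test gave an adjusted p = 7.44e-05 in Apo and 0.00114 in IR64. Of all tested probes, 4.71% had a lower mean in Apo and 8.68% in IR64. OsRR9 and OsRR10 are known as a near-identical pair, and whether the OsRR9 probe also reads OsRR10 was not tested.

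OsRR2 (LOC4329677), known as a target that the root factor WOX11 represses during crown root growth, had -0.461, -0.725 and -0.491 in Apo and -0.436, -0.533 and -0.353 in IR64. The genotypes overlapped. The adjusted p was 0.000493 in Apo and 0.00173 in IR64 by limma, and 5.15% and 5.00% of all probes lay lower in these genotypes.

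OsRR1 (LOC4335937), known as a target of the crown root factor CRL5, had -0.250, -0.176 and -0.184 in Apo and -0.0642, -0.191 and -0.0564 in IR64. All 6 arrays were negative, and the genotypes overlapped. Its mean passed the threshold in Apo, at -0.203 ± 0.0406 (limma adjusted p = 0.00471), and missed it in IR64, at -0.104 ± 0.0754 (adjusted p = 0.0664).

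OsRR4 (LOC4325747), a further type A repressor, had 0.0938, -0.217 and -0.175 in Apo and -0.0444, -0.304 and -0.205 in IR64. In each genotype the replicate 1 array was the highest, and the genotypes overlapped. Its means of -0.0994 ± 0.169 in Apo and -0.184 ± 0.131 in IR64 did not pass the threshold (limma adjusted p = 0.298 and 0.0853). Both passed with the replicate number as a block (0.0407 in Apo and 0.00914 in IR64), and the IR64 mean also passed without the Apo replicate 1 array (0.0479). For a mean against 0, here and below, the block takes the spread between replicate numbers out of the error. A pass with the block therefore does not set the mean against that spread.

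OsRR5 (LOC4336439) and OsRR6 (LOC4337372) lay on the side of the dehydrins. OsRR5 had 0.209, 0.203 and 0.0943 in Apo and 0.0992, 0.172 and 0.00318 in IR64, with means of 0.169 ± 0.0646 and 0.0914 ± 0.0847. All its 6 arrays were positive and the genotypes overlapped. It passed the threshold in Apo (limma adjusted p = 0.0167), though not without the Apo replicate 1 array (0.0864) or the Apo replicate 2 array (0.0834). In IR64 it missed the threshold (0.132), which it passed with the replicate block (0.0473).

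OsRR6, whose excess is known to dwarf rice shoots and hinder their regeneration, had 0.314, 0.0703 and 0.135 in Apo and 0.300, -0.00628 and 0.0616 in IR64. Again the replicate 1 array was the highest in each genotype. The means, 0.173 ± 0.126 in Apo and 0.119 ± 0.161 in IR64, did not pass (limma adjusted p = 0.0833 and 0.218). Without the IR64 replicate 1 array the IR64 mean was 0.0277 (0.748). With the replicate block both passed (0.00692 and 0.0227), and the Apo mean also passed without the IR64 replicate 1 array (0.0358).

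**Figure D1:**
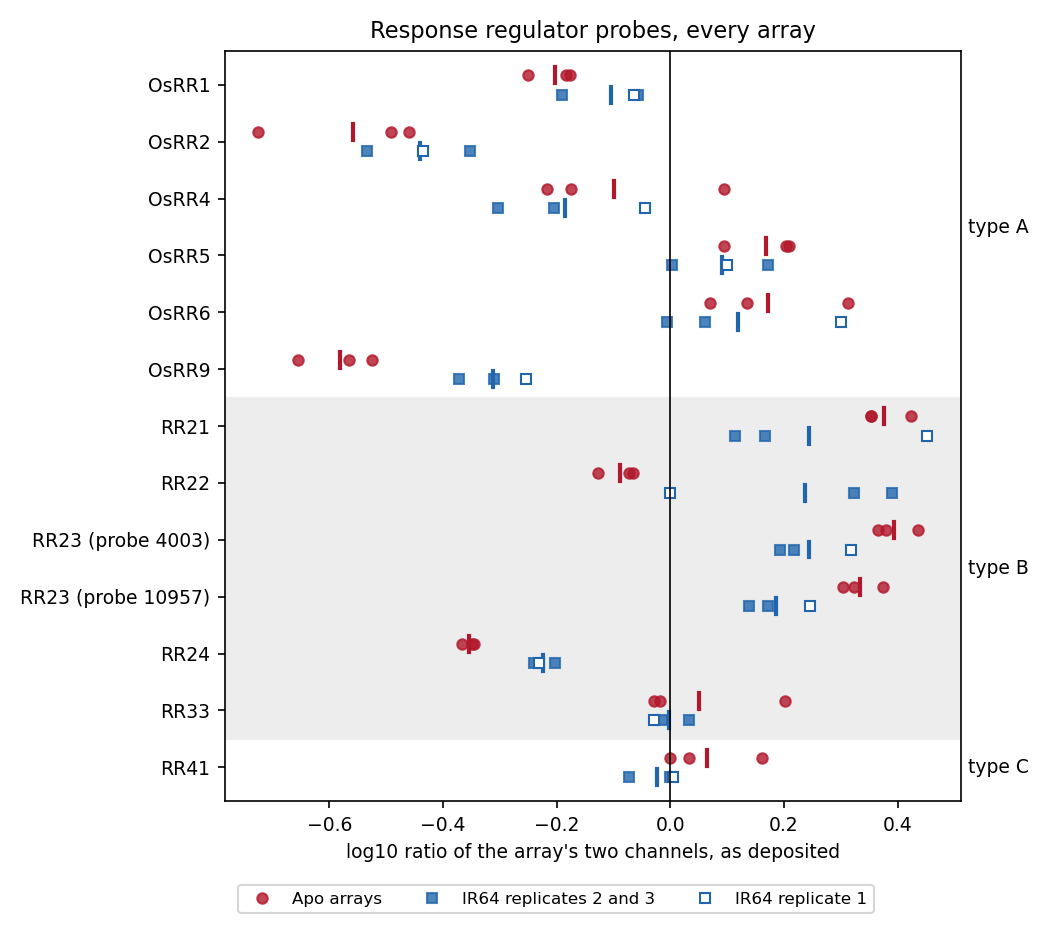
Each row is a response regulator probe and each point the deposited log10 ratio of 1 array, with Apo (circles) above IR64 (squares, replicate 1 open) and a bar at the mean of each genotype's 3 arrays. OsRR9 lies between -0.655 and -0.254 on the 6 arrays, while both RR23 probes lie between 0.139 and 0.436.

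Type B regulators were split as well. RR21 and both RR23 probes were positive in both genotypes, RR24 was negative in both, and RR22 passed the threshold as positive in IR64. These regulators stand upstream of type A in the pathway. RR21, RR22 and RR23 are known to act together in rice growth and are listed also as ORR1, ORR2 and ORR3.

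RR23 (LOC4331008) was read by different probes, which serve as a check on each other. Probe 4003 had 0.436, 0.379 and 0.366 in Apo and 0.319, 0.194 and 0.218 in IR64, and probe 10957 had 0.375, 0.323 and 0.304 in Apo and 0.246, 0.139 and 0.173 in IR64. On both probes every Apo array exceeded every IR64 array, and the IR64 replicate 1 array was the highest of IR64. The means were 0.394 ± 0.0371 in Apo and 0.243 ± 0.0663 in IR64 on probe 4003 (limma adjusted p = 0.000245 and 0.00224). On probe 10957 they were 0.334 ± 0.0370 in Apo and 0.186 ± 0.0549 in IR64 (adjusted p = 0.000368 and 0.00535). These were the nearest pair of member probes, at a Euclidean distance of 0.145 over the 6 arrays.

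RR21 (LOC4332111) had 0.424, 0.353 and 0.354 in Apo and 0.452, 0.114 and 0.167 in IR64. The IR64 replicate 1 array lay above all Apo arrays and the other IR64 arrays below them. The mean was 0.377 ± 0.0408 in Apo (limma adjusted p = 0.00347) and 0.245 ± 0.182 in IR64 (0.0236). Without the IR64 replicate 1 array the IR64 mean was 0.141 (0.0180). The IR64 call was lost without the IR64 replicate 3 array (0.0539), with an ordinary per-probe fit (0.0771) and when IR64 was fitted alone (0.0956). RR21 and probe 4003 of RR23 were the nearest probes of different member genes, at a distance of 0.166.

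RR22 (LOC4340320), whose loss is known to make rice more tolerant of salt, had -0.127, -0.0718 and -0.0659 in Apo and -0.000112, 0.324 and 0.390 in IR64. The genotypes did not overlap, but the IR64 replicate 1 array sat near 0, next to the Apo arrays and apart from the others of IR64. The mean of -0.0883 ± 0.0338 in Apo did not pass the threshold (limma adjusted p = 0.349), except without the IR64 replicate 1 array (0.0327). The mean of 0.238 ± 0.209 in IR64 passed it (0.0377). That call was lost on leaving out any of the 3 Apo arrays (0.0605 to 0.0690), the IR64 replicate 2 array (0.177) or the IR64 replicate 3 array (0.184). It was lost also with an ordinary per-probe fit (0.108) and when IR64 was fitted alone (0.128). Without the IR64 replicate 1 array the IR64 mean was 0.357 (0.000997).

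RR24 (LOC4328516), known for its part in the entry into meiosis, was the only type B probe that was negative past the threshold. It had -0.366, -0.346 and -0.350 in Apo and -0.232, -0.239 and -0.203 in IR64, so every Apo array was more negative than every IR64 array. The means were -0.354 ± 0.0107 in Apo and -0.225 ± 0.0193 in IR64, with limma adjusted p = 0.000124 and 0.00101. Its SD was the smallest of the 13 probes in each genotype.

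RR33 (LOC4345758) had -0.0290, 0.202 and -0.0189 in Apo and -0.0280, 0.0336 and -0.0147 in IR64. The Apo replicate 2 array alone stood away from 0. The means of 0.0514 ± 0.131 in Apo and -0.00304 ± 0.0324 in IR64 did not pass (limma adjusted p = 0.429 and 0.972). RR41 (LOC4334066), of type C, had 0.0333, 0 and 0.161 in Apo and 0.00434, 0 and -0.0731 in IR64, with a deposited value of exactly 0 on both replicate 2 arrays. Its means of 0.0648 ± 0.0850 and -0.0229 ± 0.0435 did not pass either (0.223 and 0.676).

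Counted together, 8 of 13 response regulator probes passed the threshold in Apo, 4 positive and 4 negative, or 61.5%, where 50.1% of all tested probes passed, 24.5% as positive and 25.6% as negative. In IR64 7 of 13 passed, 4 positive and 3 negative, or 53.8%, against 43.0% of all probes, 22.7% as positive and 20.2% as negative. Shares this near those of all probes are no result about the regulators as a family. The 6 probes called in both genotypes, those of OsRR2, OsRR9, RR21, RR23 and RR24, had 1 sign in both. How often this holds among all probes was not counted, so it is no result about the regulators. With a minimum of 2-fold, 6 of 13 probes remained in Apo, where 23.6% of all probes did, and 2 of 13 in IR64, where 17.7% did. The 2 were OsRR2 and OsRR9, both of type A, and the 6 were these with RR21, RR23 on both probes and RR24.

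Side by side, type A had 1 positive and 3 negative calls of 6 probes in Apo and no positive and 2 negative in IR64. Type B had 3 positive and 1 negative of 6 in Apo and 4 positive and 1 negative in IR64. In each genotype both probes of RR23 were among the positive ones. Of all tested probes, 24.5% passed as positive and 25.6% as negative in Apo, and 22.7% and 20.2% in IR64. With 6 probes to a type, these counts are no result about a type. The median over type A probes was -0.151 in Apo and -0.144 in IR64, that over type B probes 0.193 and 0.212, and that over all tested probes -0.00318 and 0.00. Without RR33 the type B medians were 0.334 and 0.238. These type B medians count RR23 on both probes. With either RR23 probe alone and RR33 kept, the middle type B value in Apo was that of RR33, 0.0514. In IR64 it was 0.238 with probe 4003 and 0.186 with probe 10957. By array the type A median ran from -0.247 to -0.0543 and the type B median from 0.123 to 0.263. It was lower for type A on each of the 6 arrays. With both RR23 probes counted, the gap was narrowest on the IR64 replicate 1 array, at 0.177, and widest on the Apo replicate 2 array, at 0.459. With either RR23 probe alone, the middle type B value was -0.0290 on Apo replicate 1, -0.0189 on Apo replicate 3 and -0.000112 on IR64 replicate 1. The type A medians there were still lower, at -0.0782, -0.180 and -0.0543. The few probes of a type overlap, since RR24 was more negative than OsRR1 on every array and OsRR5 and OsRR6 were positive in the mean.

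**Figure D2:**
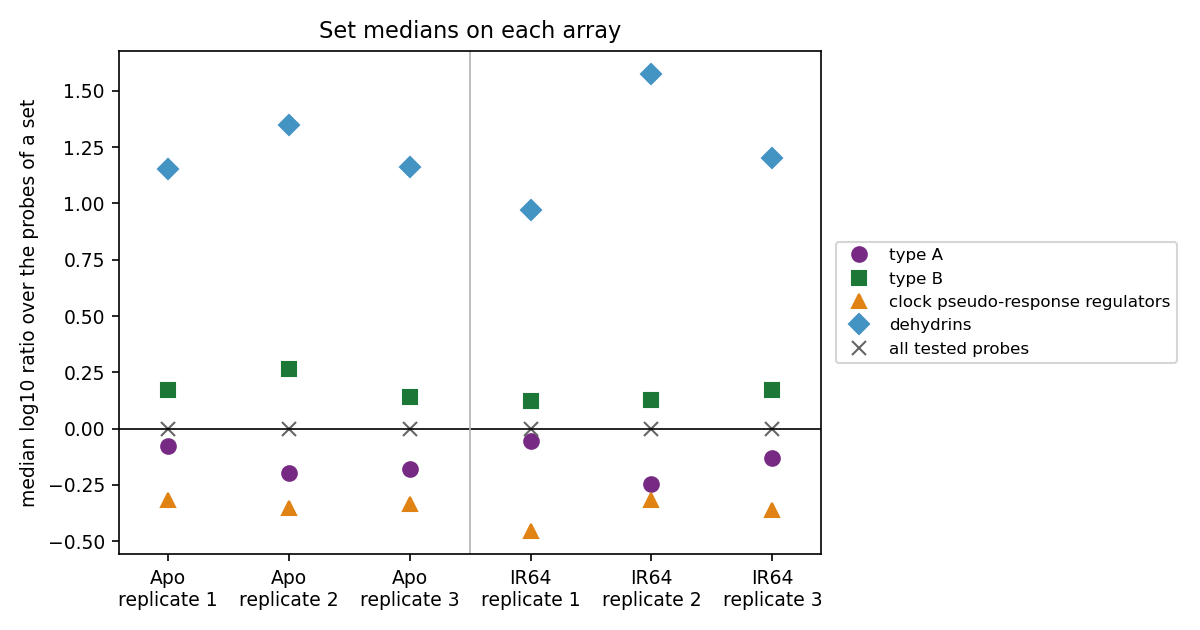
Median log10 ratio over the probes of a set (y axis) on each of the 3 Apo and 3 IR64 arrays (x axis), for type A (6 probes), type B (6), clock pseudo-response regulators (6), dehydrins (5) and all 17727 tested probes. Type A lies below 0 on every array, and type B, with both RR23 probes counted, lies above it. With only 1 RR23 probe counted, the middle type B value falls below 0 on some arrays. The dehydrins lie highest, between 0.970 and 1.58.

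Clock pseudo-response regulators share the receiver fold but not the phosphate relay. They had 6 probes for 4 genes, with 2 probes each for PRR37 and PRR73. In each genotype 5 of the 6 probes passed the threshold as negative and none as positive, with medians over probes of -0.325 in Apo and -0.357 in IR64. Of all probes, 25.6% in Apo and 20.2% in IR64 passed as negative. The dehydrins had medians of 1.22 and 1.27.

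The next comparison asked whether the ratios of the regulators differed between Apo and IR64. Any dye effect that the arrays share drops out of it. None of the 13 probes passed limma's adjusted threshold, where 2.02% of all probes did, and none passed with robust variances, with an ordinary per-probe fit or with the replicate block. At an unadjusted p under 0.05 there were 5 of 13, or 38.5%, where 27.3% of all probes passed. The arrays of the genotypes did not overlap for 5 of 13 probes, those of OsRR9, RR22, RR23 on both probes and RR24, where this held for 34.5% of all probes.

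The OsRR9 difference was -0.270 (95% interval -0.401 to -0.139), with an adjusted p = 0.0615. RR22 had the widest difference, -0.326 (-0.573 to -0.0798, adjusted p = 0.116). The RR23 probes differed by 0.150 (0.0292 to 0.271, adjusted p = 0.129) and 0.148 (0.0344 to 0.262, adjusted p = 0.119), and RR24 by -0.129 (-0.221 to -0.0378, adjusted p = 0.107). The intervals come from the fit without the replicate block. They are those of each probe alone, with no adjustment for the number of probes. Those of the other 8 probes included 0, and the bound farthest from 0 among them was 0.353, for RR21. For 11 of 13 probes the Apo mean was larger in size than the IR64 mean, where 58.3% of all probes had this.

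Without the IR64 replicate 1 array, 6 of 13 differences passed the threshold, against 33.6% of all probes. These were RR22 at -0.445 (limma adjusted p = 0.00397), RR21 at 0.236 (0.0135), RR23 at 0.188 and 0.178 (0.0190 and 0.0225), OsRR9 at -0.241 (0.0234) and RR24 at -0.133 (0.0314). Leaving out any other array gave none of 13. How far the array's likeness to Apo enters these differences was not tested.

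**Figure D3:**
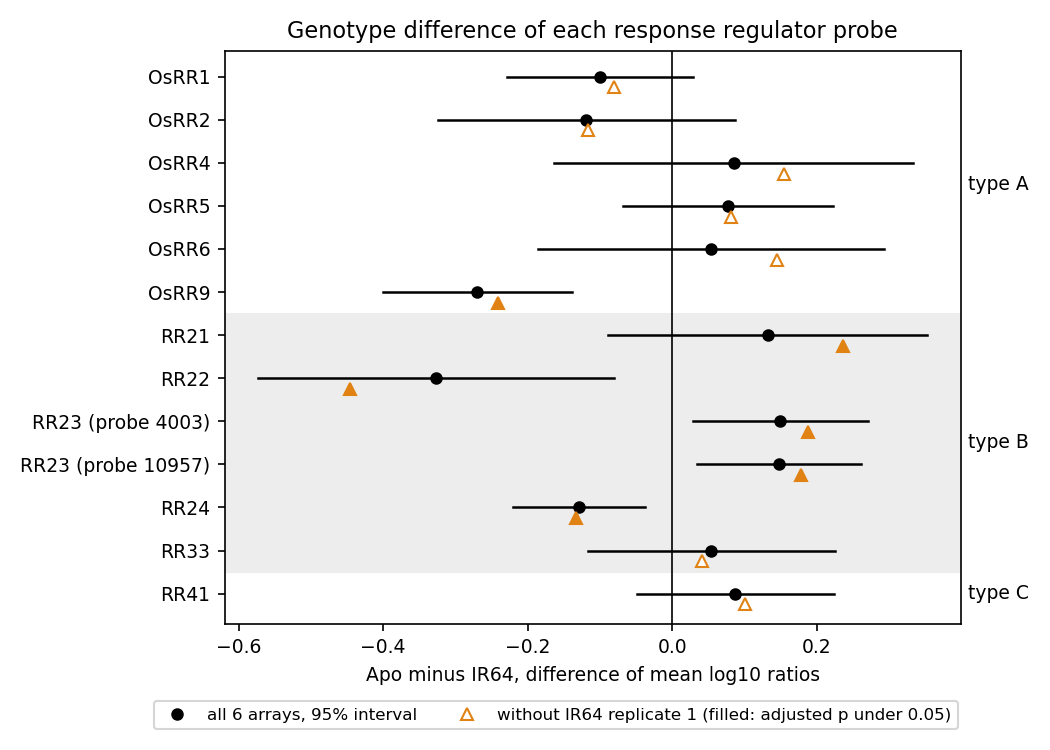
Apo minus IR64 difference of the mean log10 ratios for each response regulator probe (x axis), from all 6 arrays (circles, with 95% intervals) and without the IR64 replicate 1 array (triangles, filled where the adjusted p is under 0.05). No circle passed the threshold, and 6 triangles are filled, the farthest from 0 being RR22 at -0.445.

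Other steps of the cytokinin pathway were set beside the regulators, with probes chosen by gene name. Enzymes of the LOG family, which release active cytokinin from its nucleotide, were the synthesis genes present, with 10 probes for 8 genes. In Apo 5 passed the threshold as negative and none as positive, and in IR64 4 as negative and none as positive, where 25.6% and 20.2% of all probes passed as negative. Their medians over all 10 probes were -0.122 and -0.0392. LOGL10 averaged -0.776 ± 0.235 in Apo and -0.621 ± 0.169 in IR64 (limma adjusted p = 0.000864 and 0.00287), and LOGL3 -0.703 ± 0.0780 and -0.417 ± 0.180 (0.000319 and 0.00352). These means were more negative than that of OsRR9 in each genotype.

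LOG itself, known for keeping the shoot meristem active, averaged -0.421 ± 0.0374 in Apo and -0.569 ± 0.0321 in IR64 on probe 15876 (limma adjusted p = 9.71e-05 and 4.66e-05). Its other probe did not pass, with 0.0484 in Apo and 0.0561 in IR64, so the probes disagree. LOGL7 averaged -0.157 ± 0.0190 in Apo and -0.267 ± 0.00924 in IR64 (0.00332 and 0.000496). LOGL9 was the only probe for cytokinin synthesis, sensing, phosphotransfer or breakdown whose difference between the genotypes passed the threshold, with -0.333 ± 0.0716 in Apo and -0.0155 ± 0.0405 in IR64 (difference -0.318, adjusted p = 0.0429). It was named after its values were seen. The adjusted p was 0.0987 with an ordinary per-probe fit, 0.0556 with all varying spots in the fit, 0.137 without Apo replicate 1, 0.131 without Apo replicate 2, 0.123 without Apo replicate 3, 0.170 without IR64 replicate 2 and 0.183 without IR64 replicate 3, against 0.0136 without IR64 replicate 1. Without IR64 replicate 1 the differences of LOGL3 (-0.387, limma adjusted p = 0.0107), LOGL7 (0.115, 0.0449) and LOG probe 15876 (0.129, 0.0488) passed as well.

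Receptors and phosphate shuttle proteins, 7 probes for 5 genes, had 2 positive and 2 negative calls in each genotype. Of all probes, 50.1% passed in either direction in Apo and 43.0% in IR64, so these counts are no result about the group. The receptor HK3 was positive, at 0.358 ± 0.0587 in Apo and 0.259 ± 0.106 in IR64 (limma adjusted p = 0.00105 and 0.00526). The receptor HK4 was negative, at -0.119 ± 0.0228 and -0.183 ± 0.0117 (0.0110 and 0.00242), though not in Apo without the Apo replicate 2 array (0.0612) or the Apo replicate 3 array (0.0639). The shuttle protein AHP1 was positive at 0.332 ± 0.0508 in Apo and 0.338 ± 0.0839 in IR64 (0.000828 and 0.00104). PHP5, of a shuttle family without the phosphate-carrying histidine, was negative on probe 19120, at -0.0999 ± 0.0431 and -0.127 ± 0.0531 (0.0476 and 0.0239), and its other probes did not pass. Its Apo call was lost without any 1 of the Apo arrays (0.0605 to 0.195), without IR64 replicate 2 (0.0642) or without IR64 replicate 3 (0.0783). It was lost also with scale normalization (0.0633), all varying spots (0.0529), the filter on small ratios (0.0552), an ordinary per-probe fit (0.0526) and the probes of the gene averaged (0.936). Its IR64 call was lost without IR64 replicate 2 (0.120), IR64 replicate 3 (0.113) or Apo replicate 3 (0.0544), when IR64 was fitted alone (0.0706) and with the probes averaged (0.675).

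Cytokinin oxidases (CKX), which break the hormone down, had no call among 5 probes in Apo and 1 in each direction in IR64. Over all probes, 50.1% passed in either direction in Apo and 43.0% in IR64. CKX5 averaged 0.114 ± 0.0995 in Apo and 0.190 ± 0.0592 in IR64 (limma adjusted p = 0.0771 and 0.0159), with 0.0359 in Apo under the replicate block. Its IR64 call was lost without IR64 replicate 1 (0.0538) or 2 (0.0800). CKX3 averaged -0.0591 ± 0.0714 and -0.143 ± 0.0741 (0.281 and 0.0327), and its IR64 call was lost without IR64 replicate 2 (0.163), IR64 replicate 3 (0.131) or Apo replicate 3 (0.0645), with an ordinary per-probe fit (0.0672) and when IR64 was fitted alone (0.0753). No probe matched the names fixed for cytokinin transporters. Ethylene receptors, also related to histidine kinases, had 2 positive and 2 negative calls of 6 probes in Apo and 2 and 1 in IR64. For Apo minus IR64, where 2.02% of all probes passed, they had 1 call, on probe 18366 of ETR3, named after its values were seen. It averaged -0.731 ± 0.0955 in Apo and -0.0767 ± 0.217 in IR64 (difference -0.654, limma adjusted p = 0.0478). The call was lost on leaving out any array except IR64 replicate 1 (0.141 to 0.216, against 0.00369 without IR64 replicate 1). The other ETR3 probe averaged -0.0357 in Apo and -0.0210 in IR64 and did not pass.

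**Figure D4:**
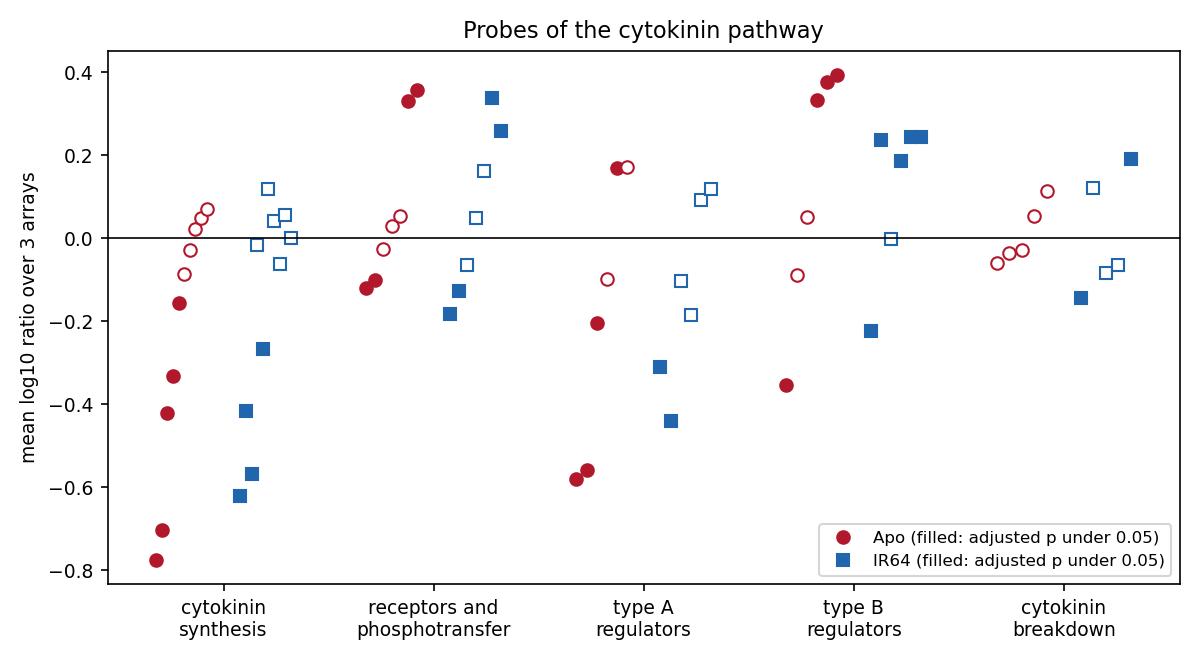
Mean log10 ratio over 3 arrays (y axis) of each probe for cytokinin synthesis, receptors and phosphotransfer proteins, type A and type B regulators, and cytokinin breakdown, with Apo (circles) left of IR64 (squares) and filled symbols past the adjusted threshold. The synthesis genes reach -0.776, and no filled symbol of that group is positive.

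By Euclidean distance over the 6 arrays, the named genes most like OsRR9 among 2394 candidate probes were CSase, DAPB2, OsCesA1, OsCslF6 and OsSIP2;1, at 0.141 to 0.206. Those most like OsRR2, the member with the largest mean over 6 arrays in size, were OsPP2C78, YSL8, Rcb4, OsPP2C71 and panC, at 0.164 to 0.229. All 10 were negative in both genotypes, as nearness to these members makes them. OsRR2 and OsRR9 were 0.354 apart, and each was the member nearest to the other.

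Lists of gene names fixed for dividing cells, root and light harvesting were read on the same arrays. Whether their genes are confined to such cells was not tested. They are counted where they passed the threshold, as 24.5% of all probes did on the positive and 25.6% on the negative side in Apo, and 22.7% and 20.2% in IR64. Of 24 probes for dividing cells, 2 passed as positive and 7 as negative in Apo, and 1 and 3 in IR64. The root list had 11 tested probes for 8 genes, with 3 probes for Lsi6 and 2 for AMT1-1. None passed as positive in either genotype, and 6 passed as negative in Apo and 9 in IR64. Lsi2 was at exactly 0 on all arrays, and Lsi1, at 0.0848 in Apo and -0.00717 in IR64, did not pass. Of 4 light-harvesting probes, 3 passed as negative in Apo and 2 in IR64, and none as positive. By array the list median ran from -0.0772 to 0.000177 for dividing cells, from -0.507 to -0.200 for root and from -0.871 to -0.363 for light harvesting. Their part in the ratios of the regulators was not tested.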

How the data were processed

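The values are within-array log10 ratios of the channels, deposited by the authors; the submitters' processing notes name Agilent Feature Extraction 8.1. Their base is taken from that software, and for direction, background correction, dye normalization and centring the sources used here say nothing. Array medians over tested probes lay between -0.000962 and 0.00. Channel intensities were not used here, so the signal over background is not known; precision is limited by the number of arrays.

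Of 22575 spots, 17839 had 1 gene by the platform annotation and 21 had several; all 17839 matched the gene table of assembly ASM3414082v1, used for names only. Annotated spots at 0 on all arrays were left out, and 17727 probes were tested. Limma 3.58.1 in R 4.3.3 fitted 1 mean per genotype to all 6 arrays, with eBayes and Benjamini-Hochberg adjustment over all probes at 0.05. The contrasts were each genotype against 0 and Apo minus IR64. The code was tested on simulated data. Tables and figures used Python 3.11.15, pandas 2.3.3 and matplotlib 3.10.9.

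The members, the lists and their tests were chosen with earlier results of these data known. All member probes are named; of each cytokinin list, up to 4 called genes with the smallest p over both genotypes were named. No promoter or protein sequences were used here, so the planned search for promoter words was not done.

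After the genotype means were subtracted, Apo and IR64 arrays of the same number correlated over probes at 0.322, 0.261 and 0.340 (replicates 1, 2 and 3), and other pairs at -0.260 to 0.0166. The numbers were therefore taken to pair the arrays. The main fit, with its p-values and intervals, left this pairing out, and a replicate block was an alternative. In a test of a genotype mean against 0 the block removes the spread between replicate numbers from the error. The other alternatives were the median of each array subtracted, scale normalization, all varying spots, a filter on small ratios, robust or no moderation of variances, each genotype alone, probes of a gene averaged, a 2-fold minimum, exact zeros as missing (chosen after seeing the data), and leaving out each array.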

Additional observations from a re-analysis of the deposited data

Results flagged for a closer look

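Apo and IR64 ratios of the cytokinin-activating enzyme LOGL9, and of the ethylene receptor ETR3 on probe 18366 only, differed by the test of the difference itself. Probe 17080 had -0.312, -0.413 and -0.275 on the Apo arrays and 0.0311, -0.0350 and -0.0426 on the IR64 arrays. The difference was -0.318 (95% interval -0.443 to -0.192) with a limma adjusted p = 0.0429. Under the replicate block it became 0.0454, with all varying spots in the fit 0.0556 and with an ordinary per-probe fit 0.0987. On leaving out any array except IR64 replicate 1 it was 0.123 to 0.183. Probe 18366 of ETR3 had -0.837, -0.651 and -0.705 on the Apo arrays and -0.323, 0.0848 and 0.00859 on the IR64 arrays. Its difference was -0.654 (-0.927 to -0.382, limma adjusted p = 0.0478). That call was lost with robust variances (0.0534), all varying spots (0.0627), scale normalization (0.0644), the probes of the gene averaged (0.0811) and an ordinary per-probe fit (0.133), and on leaving out any array except IR64 replicate 1 (0.141 to 0.216). It was 0.0351 under the replicate block. The other ETR3 probe differed by -0.0147 (limma adjusted p = 0.91). Of all tested probes, 2.02% passed for Apo minus IR64.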

How the results depend on the processing

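The count of response regulator probes past the threshold in Apo, 8 of 13, lay between 6 and 10 under the other settings and between 7 and 10 on leaving out single arrays. In IR64 the count of 7 became 2 with a 2-fold minimum and was otherwise between 5 and 10, and it lay between 5 and 7 on leaving out single arrays. For Apo minus IR64 the count of 0 stayed 0 under every other setting, and on leaving out single arrays it ran from 0 to 6, with 6 without the IR64 replicate 1 array. Of 1244 values recomputed for the 13 regulator probes and 12 other named probes, 1143 kept their sign and call. Of the rest, 68 lost the call, 18 gained it and 15 changed sign. In 16 of the 68 only the 2-fold minimum was missed, with the adjusted p unchanged. The replicate block changed 6 calls, OsRR4 and OsRR6 in both genotypes, OsRR5 in IR64 and CKX5 in Apo, all given above, and no other call. Sign changes were confined to values not past the threshold, except for PHP5 in IR64, which was 0.0275 with its probes averaged, and their cause was not tested. For PHP5 the averaged difference was -0.0330. On leaving out single arrays, RR33 ran from -0.0239 to 0.0916 in Apo, from -0.0213 to 0.00944 in IR64 and from -0.0209 to 0.0946 for the difference, RR41 from -0.0366 to 0.00217 in IR64 and ETR3 from -0.157 to 0.0467 in IR64. The difference ran from -0.0116 to 0.155 for OsRR4, from -0.0161 to 0.145 for OsRR6 and from -0.0542 to 0.0220 for AHP1. The filter on small ratios left out 2 regulator probes, and fitting a genotype alone gives no difference. Over all probes, the 358 calls for Apo minus IR64 became 951 with the replicate block, 86 with the ordinary fit, 235 with all varying spots and 5959 without IR64 replicate 1, and at most 12 on leaving out any other array.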
